A study of Mus musculus with 20 samples.

Results

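The proteasome genes described here are the 48 rows of the gene table, of 29671 in all, whose symbol is Psm, a letter from a to g and a number. The rule used symbols and no measured value. It took 19 genes of the core particle (Psma, Psmb), 20 of the regulatory particle (Psmc, Psmd) and 9 others (Psme, Psmf, Psmg), and left out 4 rows that only begin with Psm (Psmc3ip, Psme2b, Psmb7-ps2 and Psmb6-ps2). The study measured poly-A RNA in the amygdala of male C57B6 mice at postnatal day 84, with 5 mice, and so 5 libraries, in each of 4 groups. The F2 stress group and the F1 stress group are second and first generation descendants of mice put through chronic unpredictable stress, and the F2 no-stress and F1 no-stress groups are the same generations of an unstressed lineage. All 20 mice were themselves behaviourally naive and were bred in house from Taconic stock. The labels give no parent or litter, so mice of 1 group may share parents, and p-values then measure the spread between these mice.

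The proteasome is the barrel-shaped protease that degrades ubiquitin-tagged proteins in the cytosol and nucleus. Its core is built of outer rings of alpha subunits, which gate the entrance, and inner rings of beta subunits, 3 of which (Psmb5, Psmb6 and Psmb7) carry the cutting sites. The regulatory particle caps the core: its Psmc ATPases unfold and thread substrates, and its Psmd subunits bind and remove ubiquitin and hold the lid together. In neurons it is known for turning over synaptic proteins. Interferon induces the replacement subunits Psmb8, Psmb9 and Psmb10, which take the places of Psmb5, Psmb6 and Psmb7 in the immunoproteasome.

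Deposited library totals were nearly equal, at 13654890 to 13714805 counts, and the 48 genes together took between 0.24% and 0.32% of each library. Of the 48, 46 passed the filter on low counts, among 16727 genes tested in all, and their counts per library ran from 3 (Psmb9) to 3042 (Psmd2). Markers of neurons, glia and vessels were all detected, and none was at 0 in all libraries. Summed CPM (counts scaled to a common library size) of 9 striatal neuron markers ranged over 369.5 to 5144.1 in F2 stress and 1250.7 to 4656.5 in F2 no-stress libraries, and over 861.3 to 2460.5 in F1 stress and 1175.8 to 4558.5 in F1 no-stress libraries. These sums differed several-fold among mice of 1 group, and their part in the results below was not tested. In such tissue, fewer cells of a type and less RNA per cell cannot be told apart.

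The level of each gene was compared within the complex as CPM per kilobase of its merged exons, averaged over the 20 libraries. Psmc5, an ATPase of the regulatory particle, was the highest of the 48 at 82.1 ± 5.31 CPM per kilobase (SD over 20 libraries), and stayed first when the longest or the principal coding transcript gave the length. Psmc1, another of the ATPases, followed at 60.2 ± 5.38, then the alpha subunit Psma6 at 56.1 ± 6.84, the beta subunit Psmb5 at 54.4 ± 7.06 and the scaffold subunit Psmd2 at 50.6 ± 3.52 CPM per kilobase. Psmc5 stood above Psmc1, and Psmd2 above the gene after it, by more than the larger SD of the pair. Between Psmc1, Psma6, Psmb5 and Psmd2 the steps in this order were smaller than that, and the order of these 4 changed with the length used. The median over genes was 20.2 CPM per kilobase for the core and 20.3 for the regulatory particle with merged exons, and 49.7 and 42.9 with principal transcripts. Genes that act on the complex without being standing parts of it had lower medians. The 7 assembly factors are Psmg1 to Psmg4, and Psmd5, Psmd9 and Psmd10, which are also counted in the regulatory particle throughout. Their median was 5.67 CPM per kilobase, that of the 4 activators was 11, and Psmf1, named as an inhibitor of the core, was at 4.59. The activator Psme3, which caps nuclear proteasomes, was an exception with merged exons, at 30.7 ± 1.83 CPM per kilobase, above the medians of both particles. With principal transcripts Psme3 was at 34.0 ± 2.02, below the medians of both.

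**Figure D1:**
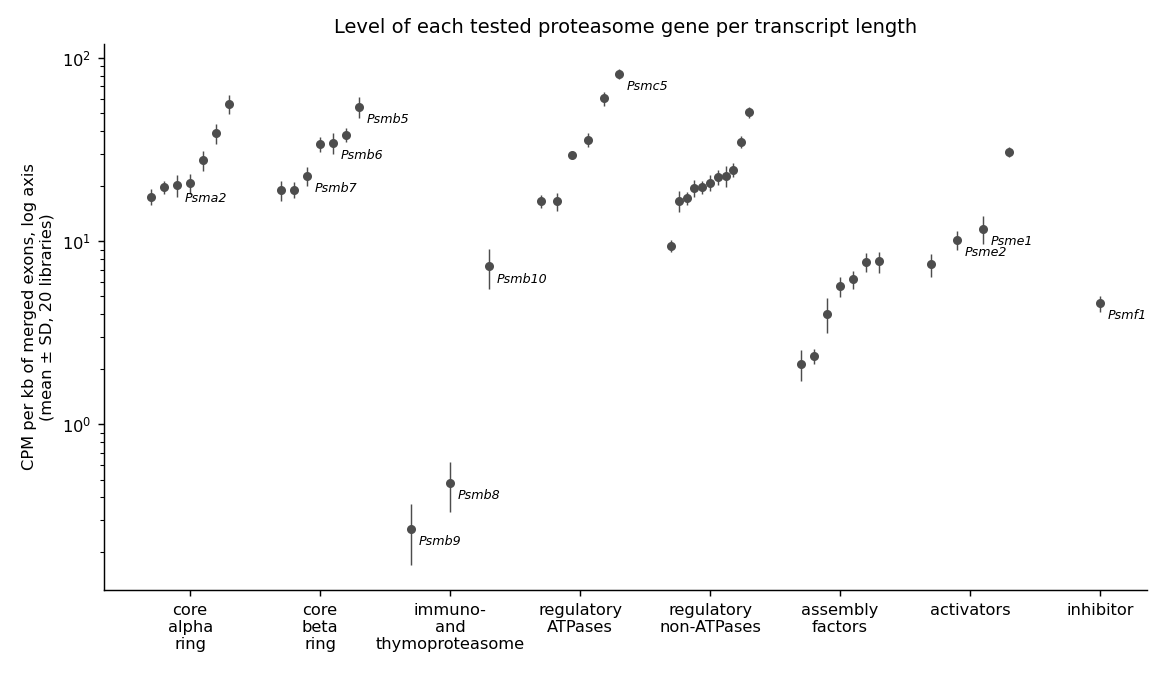
Mean level of each of the 46 tested proteasome genes (CPM per kilobase of merged exons, log axis; points are means over 20 libraries and bars are SD), grouped by role. Psmc5 is highest at 82.1, and Psmb8 and Psmb9 lie below 1 CPM per kilobase.

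The immunoproteasome subunits were rare. Psmb8, the replacement of the chymotrypsin-like subunit Psmb5, had 1.85, 1.51, 2.44, 0.704 and 2.64 CPM in F2 stress libraries, against 1.89, 0.963, 1.38, 1.95 and 1.15 CPM in F2 no-stress libraries. Psmb5 itself had 52.5, 41.9, 39.7, 49.2 and 53.5 CPM in F2 stress libraries, against 55.7, 56.1, 61.9, 48.9 and 39.2 CPM in F2 no-stress libraries. The groups overlapped for both genes. F1 stress libraries had 1.44, 1.63, 2.14, 1.22 and 1.6 CPM of Psmb8, against 1.86, 1.31, 1.74, 2.01 and 0.994 CPM in F1 no-stress libraries. Psmb5 had 46.1, 45.6, 40.2, 51.7 and 56.5 CPM in F1 stress libraries, against 48.0, 53.2, 44.4, 50 and 43.1 CPM in F1 no-stress libraries. Neither gene separated the lineages in F1. Psmb9, the replacement of the caspase-like subunit Psmb6, had 0.784, 1.28, 0.861, 0.704 and 1.51 CPM in F2 stress libraries, against 1.14, 0.963, 1.38, 0.721 and 1.15 CPM in F2 no-stress libraries. Psmb6 had 67.6, 54.7, 56.7, 62.3 and 77.5 CPM in F2 stress libraries, against 74.2, 65.0, 78.2, 62.2 and 54.2 CPM in F2 no-stress libraries. These groups overlapped as well. Per kilobase of merged exons, Psmb8 stood at 0.38% to 1.63% of Psmb5 over the 20 libraries, with a median of 0.921%, and Psmb9 at 0.2% to 1.2% of Psmb6, with a median of 0.768%.

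Psmb10, the replacement of the trypsin-like subunit Psmb7, was the exception among the replacements, at 16.9% to 51.6% of Psmb7 per kilobase of merged exons, and at 7.43% to 22.8% with principal transcripts. It had 8.77, 7.25, 12.3, 11.6 and 11.7 CPM in F2 stress libraries, against 14.1, 15.3, 20.2, 15.5 and 9.88 CPM in F2 no-stress libraries. F1 stress libraries had 10.3, 13.2, 11.9, 11 and 13.7 CPM, against 16.8, 13.3, 12, 12.3 and 7.72 CPM in F1 no-stress libraries. Every F2 stress library lay below 4 of the 5 F2 no-stress libraries, and the fifth overlapped. The log2 fold change in F2 was -0.54 ± 0.191 (SE), and it did not pass the test across genes (edgeR quasi-likelihood test, Benjamini-Hochberg adjusted p = 0.0822). Relative to Psmb7, Psmb10 averaged 24.5% ± 6.55 in F2 stress and 43.9% ± 7.95 in F2 no-stress libraries (per kilobase of merged exons, SD, n = 5 each). In F1 this ratio averaged 31.9% ± 4.02 in stress and 30.8% ± 9.62 in no-stress libraries, and it was not tested. Psmb10 is rich and Psmb7 poor in GC, and fold changes in F2 followed GC content, as described below. The part of base composition in the ratio was not tested. With the GC and length offset described below, the log2 fold change of Psmb10 in F2 was -0.30 (edgeR adjusted p = 0.364).

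Psme1 and Psme2, which form the interferon-inducible activator ring, were much more abundant than Psmb8. Psme1 had 28.4, 21.5, 29.2, 37.1 and 20.4 CPM in F2 stress libraries, against 21.5, 25.2, 29.7, 28.5 and 24.9 CPM in F2 no-stress libraries. Psme2 had 21.3, 16.5, 18.8, 19.4 and 19.1 CPM in F2 stress libraries, against 16.8, 16.7, 19.9, 20.1 and 17.9 CPM in F2 no-stress libraries. The lineages overlapped for both genes in F2. F1 stress libraries had 22.2, 29.7, 27.5, 22.1 and 28.8 CPM of Psme1, against 29.4, 26.7, 24.4, 21.2 and 19.5 CPM in F1 no-stress libraries. Psme2 had 16.6, 15.1, 18.2, 13.6 and 19.7 CPM in F1 stress libraries, against 16.7, 20, 18.3, 15.3 and 21.6 CPM in F1 no-stress libraries. The lineages overlapped in F1 too, and reads of Psme2 may be split with its near-identical copy Psme2b, so its level is uncertain. Exons of Psme1 also overlap Emc9 on the other strand. At the bottom of the list, Psma8, the testis form of an alpha subunit, had at most 10 counts in a library and was at 0 in 2 of 20. Psmb11, the subunit of thymic epithelium, had at most 3 counts and was at 0 in 13 of 20 libraries, where a count of 0 allows up to 0.22 CPM (3 counts, counting error only). These 2 genes were not tested.

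F2 stress and F2 no-stress mice were compared first, to ask whether proteasome genes differed between lineages in the second generation. Of the 46 genes, 7 passed the test, 6 higher and 1 lower in F2 stress mice, and their fold changes were small. Across all genes tested, 7.92% passed in this comparison, 2.64% higher and 5.28% lower. Of the 17 core genes tested 4 rose, of which 3 belong to the alpha ring, and of the 20 regulatory particle genes 2 rose and 1 fell. No assembly factor, activator or inhibitor passed. Over the 46 genes 31 log2 fold changes were positive and 15 negative, with a median of 0.12, beside 0.00 over all genes tested.

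Psma2, an alpha ring subunit, had 97.7, 77.4, 83.0, 76.7 and 77.0 CPM in F2 stress libraries, against 57.9, 58.7, 70.2, 66.0 and 59.4 CPM in F2 no-stress libraries. Every F2 stress library was above every F2 no-stress library. Psma2 rose by 0.40 ± 0.087 on the log2 scale (SE; edgeR adjusted p = 0.0129). F1 stress libraries had 78.6, 69.8, 73.4, 63.9 and 77.8 CPM of Psma2, against 70.1, 78.9, 91.0, 78.3 and 79.3 CPM in F1 no-stress libraries, so the F2 no-stress group had the lowest mean of the 4, at 62.5 ± 5.38 CPM (SD, n = 5). Without F2 stress library 11, the highest for this gene, its adjusted p was 0.0521.

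Psma6, also of the alpha ring, had 86.1, 68.1, 68.5, 73.4 and 74.5 CPM in F2 stress libraries, against 56.6, 55.1, 68.0, 63.1 and 58.4 CPM in F2 no-stress libraries, a log2 fold change of 0.30 ± 0.0847 (edgeR adjusted p = 0.0344). The lowest F2 stress library was just above the highest F2 no-stress library. In F1, Psma6 stood at 73.1, 67.6, 59.6, 62.2 and 72.5 CPM in stress libraries, against 67.0, 77.8, 82.8, 71.8 and 77.2 CPM in no-stress libraries, with overlap. Psma3, of the same ring, had 90.9, 80.8, 79.6, 80.4 and 79.1 CPM in F2 stress libraries, against 64.4, 66.8, 72.4, 73.9 and 73.9 CPM in F2 no-stress libraries. It rose by 0.23 ± 0.0639 on the log2 scale (edgeR adjusted p = 0.0346), and the groups did not overlap. In F1, Psma3 stood at 76.6, 70.9, 74.3, 76.9 and 77.3 CPM in stress libraries, against 72.5, 80.7, 86.5, 81.2 and 82.2 CPM in no-stress libraries. The other 4 tested alpha subunits did not pass, with log2 fold changes of 0.24 for Psma1, 0.28 for Psma4, 0.27 for Psma5 and 0.06 for Psma7, so that all 7 alpha subunits tested had positive values, with a median of 0.27; the groups of Psma4 did not overlap.

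Among the beta subunits Psmb7, which carries the trypsin-like site, had 104.4, 80.8, 79.8, 83.0 and 81.6 CPM in F2 stress libraries, against 62.9, 67.3, 78.6, 66.7 and 65.1 CPM in F2 no-stress libraries. It rose by 0.34 ± 0.0826 on the log2 scale (edgeR adjusted p = 0.0201), and the lowest F2 stress library was above the highest F2 no-stress library. The F1 values of Psmb7 were 80.8, 76.0, 71.4, 73.3 and 77.6 CPM in stress libraries, against 74.2, 86.4, 90.0, 76.8 and 81.5 CPM in no-stress libraries, and these overlapped. Exons of Psmb7 overlap Nek6 on the other strand, and since the sources used here do not state whether counting used strand, reads of the 2 cannot be told apart. The other catalytic subunits gave -0.14 ± 0.118 for Psmb5 and -0.07 ± 0.11 for Psmb6 (log2, SE), which did not pass. Over the 7 beta ring genes 3 values were positive, with a median of -0.01.

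In the regulatory particle Psmd1, a large scaffold subunit, had 164.9, 149.1, 147.0, 151.4 and 139.1 CPM in F2 stress libraries, against 121.0, 130.4, 129.0, 132.9 and 124.6 CPM in F2 no-stress libraries. The groups did not overlap, and the log2 fold change was 0.24 ± 0.0615 (edgeR adjusted p = 0.0242). The F1 values of Psmd1 were 142.7, 146.5, 151.0, 151.4 and 142.7 CPM in stress libraries, against 143.3, 152.4, 160.4, 135.5 and 145.8 CPM in no-stress libraries, so the F1 groups overlapped and all 5 F2 no-stress libraries lay below the other 15. Exons of Psmd1 overlap Gm21972 on the same strand and Htr2b on the other. Psmd11, a lid subunit that contacts the core, had 65.6, 67.8, 62.2, 65.0 and 61.2 CPM in F2 stress libraries, against 51.7, 55.3, 59.2, 59.0 and 52.1 CPM in F2 no-stress libraries, a log2 fold change of 0.21 ± 0.0647 close to the threshold (edgeR adjusted p = 0.0456).

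Psmd3, another lid subunit, moved the other way. It had 72.5, 70.9, 66.1, 77.7 and 86.7 CPM in F2 stress libraries, against 105.0, 100.1, 101.3, 88.8 and 79.2 CPM in F2 no-stress libraries. The log2 fold change was -0.34 ± 0.0886 (edgeR adjusted p = 0.0236), although the highest F2 stress library lay above the lowest F2 no-stress library. Exons of Psmd3 overlap Gm12356 on the other strand. In F1, Psmd3 stood at 77.9, 84.1, 73.5, 80.0 and 86.1 CPM in stress libraries, against 81.2, 78.2, 78.3, 88.9 and 69.1 CPM in no-stress libraries. The F1 groups overlapped. The deubiquitinase Psmd14 (0.29, edgeR adjusted p = 0.0662) and the lid subunit Psmd6 (0.23, 0.0793) did not pass. The lineages did not overlap for either gene, and the share of all genes without overlap is not given here. The ubiquitin receptor Psmd4 gave -0.08 ± 0.0877.

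**Figure D2:**
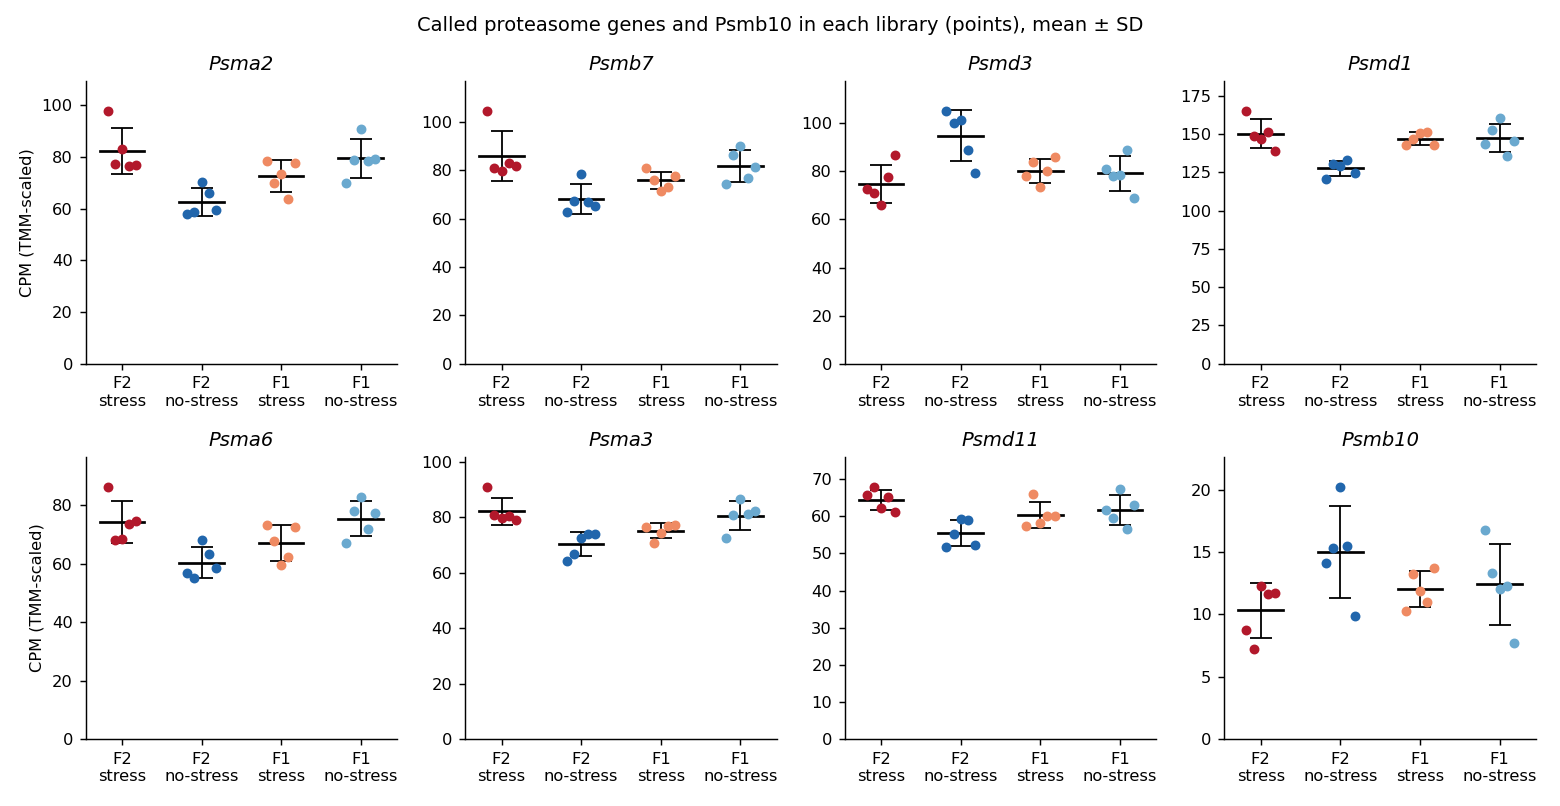
CPM of the 7 called genes and of Psmb10 in each library (points), with group means and SD (lines and bars; n = 5 in each of 4 groups; axes start at 0). F2 stress library 11 is the leftmost point of its group and is highest for Psma2, Psmb7, Psmd1, Psma6 and Psma3; Psmd3 and Psmb10 are lower in F2 stress than in F2 no-stress libraries, with overlap.

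**Figure D3:**
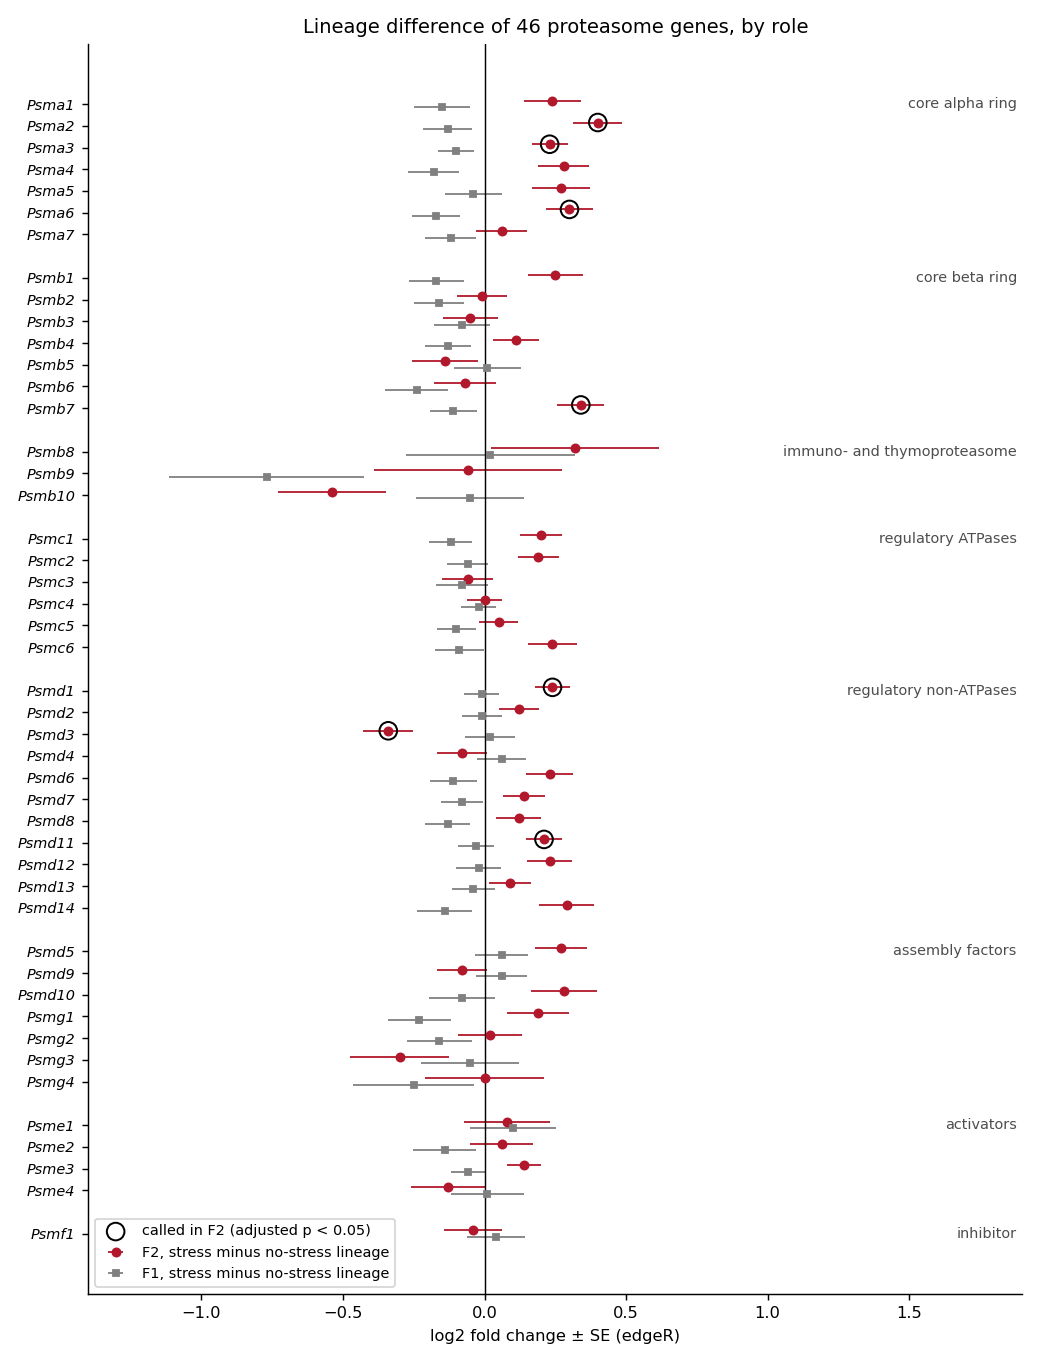
Log2 fold change of stress over no-stress lineage with SE for the 46 tested genes, in F2 (circles) and F1 (squares), ordered by role. All 7 alpha subunits lie right of 0 in F2 and left of 0 in F1; rings mark the 7 genes that passed in F2.

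Promoter windows from RefSeq (GRCm38.p6, from 250 bases before to 50 after the annotated start) exist for 40 of the 48 genes. The windows of the 4 called genes that have exactly 1 window in the table are shown, since these genes passed in the same comparison; Psmb7, Psmd3 and Psma6 are named only. Capitals mark CCAAT boxes (CCAAT or ATTGG) and GC boxes (GGGCGG or CCGCCC), searched on both strands.
Psma2, chr13:14612992-14613291, + strand: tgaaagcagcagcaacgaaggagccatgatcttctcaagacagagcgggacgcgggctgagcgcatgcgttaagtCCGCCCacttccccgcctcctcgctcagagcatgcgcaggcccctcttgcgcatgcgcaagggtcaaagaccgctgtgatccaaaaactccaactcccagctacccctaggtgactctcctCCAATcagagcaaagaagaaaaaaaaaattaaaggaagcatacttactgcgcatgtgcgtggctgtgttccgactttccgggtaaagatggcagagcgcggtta
Psma3, chr12:70974373-70974672, + strand: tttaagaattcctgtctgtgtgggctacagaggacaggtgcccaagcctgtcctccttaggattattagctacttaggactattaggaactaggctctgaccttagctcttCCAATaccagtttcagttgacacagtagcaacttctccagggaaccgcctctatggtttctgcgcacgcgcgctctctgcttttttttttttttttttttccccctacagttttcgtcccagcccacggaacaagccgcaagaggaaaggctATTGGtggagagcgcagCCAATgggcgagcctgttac
Psmd1, chr1:86064369-86064668, + strand: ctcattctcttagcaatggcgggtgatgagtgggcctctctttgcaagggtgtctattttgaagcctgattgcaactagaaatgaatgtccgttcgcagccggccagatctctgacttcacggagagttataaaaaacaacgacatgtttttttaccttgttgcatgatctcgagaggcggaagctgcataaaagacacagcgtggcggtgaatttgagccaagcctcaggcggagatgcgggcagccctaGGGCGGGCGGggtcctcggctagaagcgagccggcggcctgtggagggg
Psmd11, chr11:80428365-80428664, + strand: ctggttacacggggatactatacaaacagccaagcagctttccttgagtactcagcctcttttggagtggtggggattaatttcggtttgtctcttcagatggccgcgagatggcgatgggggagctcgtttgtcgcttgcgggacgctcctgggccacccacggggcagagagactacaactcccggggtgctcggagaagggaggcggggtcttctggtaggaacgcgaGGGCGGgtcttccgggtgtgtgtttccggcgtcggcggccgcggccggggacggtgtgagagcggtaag
The Psma2 window holds 1 CCAAT box at -54 and 1 GC box at -175, counted from the annotated start to the first base of the match as read on the plus strand. Psma3 holds 3 CCAAT boxes and no GC box, Psmd1 holds 2 GC boxes that overlap each other and no CCAAT box, and Psmd11 holds 1 GC box at -19. None of the 4 windows contains TGACNNNGC, the core of the antioxidant response element through which Nfe2l1 and Nfe2l2 act on proteasome genes. That core was found in at least 1 window of 6 of 40 proteasome genes (15%) and of 14% of 27025 genes. Counted the same way, CCAAT was found for 8 of 15 core and 5 of 17 regulatory particle genes, beside 41.1% of all genes. The GC box was found for 6 of 15 core and 13 of 17 regulatory particle genes, beside 38.2% of all genes. A match of letters is a description and not a bound site.

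The fold changes in F2 followed the base composition of the genes. Across the 46 genes, which share the same 10 libraries, the log2 fold change and the GC content of the longest transcript had a Spearman rho of -0.65. It was -0.71 over 17 core genes, -0.84 over 20 regulatory particle genes and -0.54 over 16692 genes of known composition. The 11 proteasome genes under 45% GC included 10 with positive values (median 0.24), and the 15 genes at or above 52% included 7 (median -0.00). All genes tested had medians of 0.16 and -0.21 in these 2 classes. Of the called genes, Psma2 (39.4% GC), Psmd11 (39.9%), Psmb7 (40.8%) and Psma3 (40.8%) are among the poorest in GC. Psmd3 (55.4%), and Psmb10 (56.5%), which was not called, are among the richest. The 20 genes from 45% to under 52% GC included 14 with positive values (median 0.14), beside a median of 0.06 over all genes of this class. The called gene Psma6, at 0.30, was the highest of these 20. The GC content of the called gene Psmd1 is not given here. When each library's own trend with GC content and length was entered as an offset, none of the 46 genes passed, beside 0.0777% of all genes tested. The smallest adjusted p was then 0.0886, for Psma7 (0.32 on the log2 scale, edgeR), and 14 of the 46 genes had an unadjusted p below 0.05, beside 2506 of all 16727. With the offset Psma2 was at 0.24, Psmb7 at 0.17, Psmd1 at 0.17, Psma6 at 0.17 and Psmd3 at -0.12 (log2), 35 of 46 values (76.1%) were positive, beside 55.9% of all genes, and the median was 0.10, beside 0.03 over all genes. The part of base composition in the lineage difference was not tested further.

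**Figure D4:**
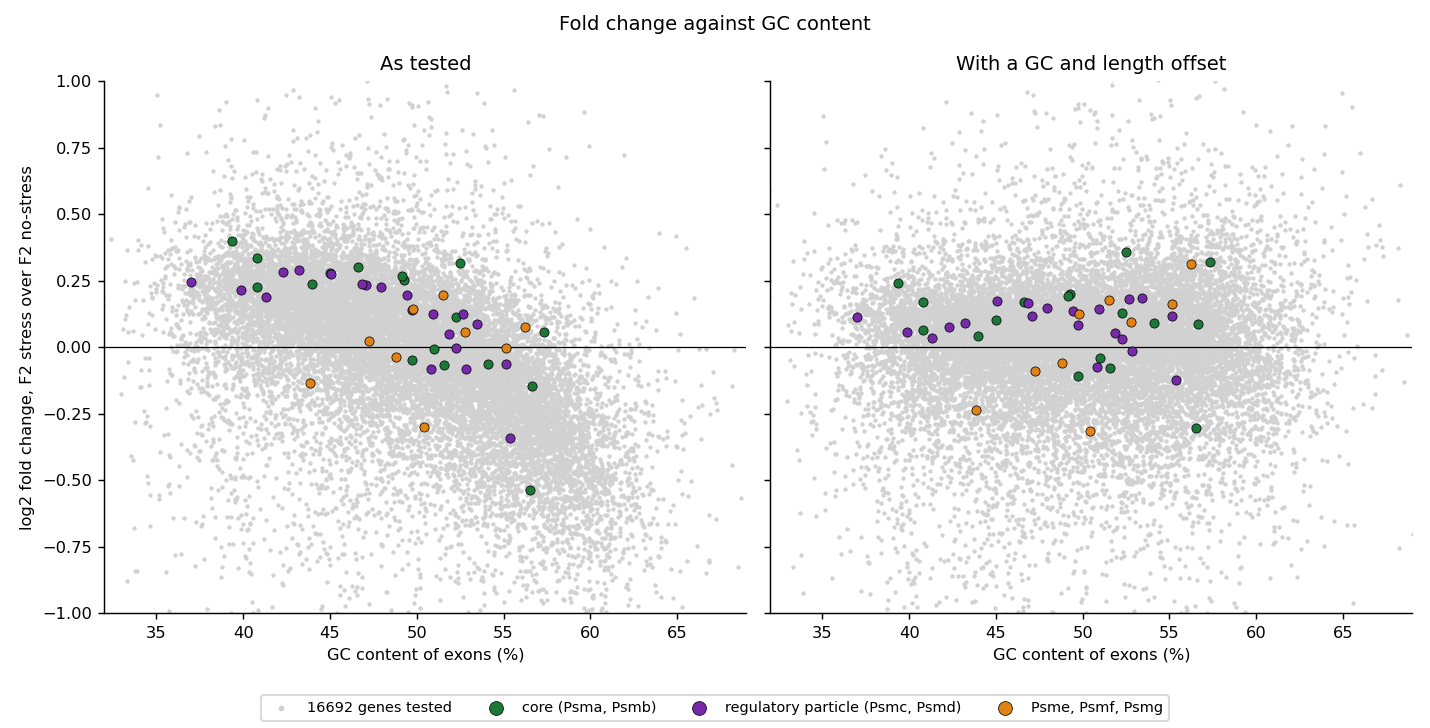
Log2 fold change in F2 (stress over no-stress lineage) against GC content of the exons of each gene's longest transcript, as tested (left) and with a GC and length offset per library (right). All 16692 genes of known composition are grey and the proteasome genes coloured. The downward slope on the left, rho -0.65 over the 46 genes, is 0.04 on the right; 233 and 196 genes lie outside the axes.

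Single libraries moved these calls. F2 stress library 11 was the highest of its group for 5 of the 7 called genes, and without it no proteasome gene passed. With 1 library left out at a time, the largest edgeR adjusted p was 0.119 for Psma3, 0.122 for Psma6, 0.0721 for Psmb7, 0.0869 for Psmd1, 0.0746 for Psmd3 and 0.122 for Psmd11, and between 0 and 12 of the 46 genes passed. Psmd11 passed in 7 of these 20 fits. When the F1 libraries were left out of the model, no gene of any kind passed, proteasome genes included, while 3216 of all genes had an unadjusted p below 0.05. Among the marker lists in F2, 3 of 6 endothelial markers were called lower (median log2 fold change -0.32), with summed levels of 104.9 to 188.3 CPM in F2 stress and 150.5 to 179.1 CPM in F2 no-stress libraries. Of 10 interferon-induced genes 1 was called higher (median 0.17), with 80.5 to 130.6 CPM in F2 stress and 83.8 to 102.2 CPM in F2 no-stress libraries. Of the 7 other lists of markers none had a called gene. Their part in the results was not tested.

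In the first generation no proteasome gene passed, and 0% of all genes tested did; 3 of the 46 had an unadjusted p below 0.05, as did 1030 of all 16727 genes, and DESeq2 called 2 genes in all, none of them a proteasome gene, and limma-voom 0. The values leaned the other way from F2, with 37 of 46 negative and a median of -0.08, beside 0.00 over all genes. All 7 alpha subunits were negative, with a median of -0.13. Psmb9, the replacement of the caspase-like subunit Psmb6, had the smallest p. It had 0.227, 0.782, 0.429, 0.787 and 1.17 CPM in F1 stress libraries, against 1.43, 1.6, 1.13, 0.969 and 0.688 CPM in F1 no-stress libraries, a log2 fold change of -0.77 ± 0.345 with overlap (edgeR adjusted p = 0.739). Such values rest on few counts, and exons of Psmb9 overlap Tap1 on the other strand.

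Psmb6, the caspase-like catalytic subunit, had 57.9, 60.3, 57.8, 51.6 and 66.1 CPM in F1 stress libraries, against 63.0, 72.2, 76.4, 75.6 and 59.2 CPM in F1 no-stress libraries, a log2 fold change of -0.24 ± 0.11 (edgeR adjusted p = 0.739). Psmg1, a chaperone of core assembly, had 5.97, 6.75, 7.08, 8.08 and 6.19 CPM in F1 stress libraries, against 7.29, 8.09, 9.28, 7.6 and 7.72 CPM in F1 no-stress libraries, -0.23 ± 0.11 with the same adjusted p. Both pairs of groups overlapped. In this generation 0 of 9 striatal and 0 of 10 microglial markers had positive values (medians -0.85 and -0.21), with summed microglial levels of 374.5 to 484.7 CPM in F1 stress and 438.1 to 525.9 CPM in F1 no-stress libraries; their part was not tested.

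The difference between the lineage effects, F2 minus F1, was tested in the same fit. Of the 46 genes 3 passed, all higher and all in the core, beside 2.52% of all genes tested, 0.837% of them higher. Psma2 differed by 0.53 ± 0.123 on the log2 scale (edgeR adjusted p = 0.034), from a lineage effect of 0.40 in F2 and -0.13 in F1. Psma6 differed by 0.47 ± 0.12 (0.0439), from 0.30 in F2 and -0.17 in F1, and Psmb7 by 0.44 ± 0.117 (0.0472), from 0.34 in F2 and -0.11 in F1. No regulatory particle gene passed this test, and the smallest edgeR adjusted p there was 0.0806. DESeq2 called 10 proteasome genes, beside 1211 of all genes, and limma-voom called 2, beside 364. Over the 46 genes 37 differences were positive, with a median of 0.23, beside -0.01 over all genes. With the GC and length offset none passed, and the 3 values were 0.35, 0.28 and 0.25. Of the 20 fits that leave out 1 library, Psma2 passed in 9, Psma6 in 6 and Psmb7 in 5. In this comparison 9 of 9 striatal neuron markers had positive values (median 0.73), as did 7 of 10 interferon-induced genes (median 0.38), while 1 of 6 endothelial markers did (median -0.25). None of these markers was called, and their part was not tested.

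Generations were then compared within a lineage. Between F2 no-stress and F1 no-stress mice 1 gene passed, Psma2, lower in F2, beside 2% of all genes tested, 0.532% of them lower. Its log2 fold change was -0.35 ± 0.087 (edgeR adjusted p = 0.0441), from the CPM given above. Psma6 was next at -0.32 ± 0.0847 and did not pass (edgeR adjusted p = 0.0505). Values were negative for 33 of 46 genes, with a median of -0.12, beside 0.02 over all genes. DESeq2 called 6 proteasome genes lower, beside 420 of all genes. Across the 46 genes, the log2 fold change and the GC content of the longest transcript had a Spearman rho of 0.73, beside 0.48 over 16692 genes. With the GC and length offset Psma2 was at -0.23 (edgeR adjusted p = 0.28), and none of the 46 genes passed. The part of base composition was not tested further. This comparison shares its F2 no-stress libraries with the F2 lineage comparison, where the same libraries are the lower side for Psma2, and it gives no independent support. All 6 endothelial markers had positive values (median 0.28) and 1 was called higher, with summed levels of 150.5 to 179.1 CPM in F2 no-stress and 120.1 to 151.0 CPM in F1 no-stress libraries. Of 8 oligodendrocyte markers 7 were positive (median 0.26) and none was called, with sums of 2824.2 to 5737.8 CPM in F2 no-stress and 2786.2 to 4854.3 CPM in F1 no-stress libraries. Striatal neuron markers were positive for 1 of 9 (median -0.22), and the part of these markers was not tested.

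Between F2 stress and F1 stress mice no proteasome gene passed, beside 0.012% of all genes tested. An unadjusted p below 0.05 was found for 3 of the 46, beside 1169 of all 16727 genes. DESeq2 and limma-voom called 0 of the 46, beside 6 and 1 of all genes. Values were positive for 38 of 46 genes, with a median of 0.10, beside 0.01 over all genes. Psmg1 had 9.05, 7.4, 8.61, 8.52 and 8.31 CPM in F2 stress libraries, against 5.97, 6.75, 7.08, 8.08 and 6.19 CPM in F1 stress libraries, 0.30 ± 0.11 on the log2 scale (edgeR adjusted p = 0.643). Psma4, an alpha subunit, had 84.3, 71.2, 71.1, 64.0 and 67.1 CPM in F2 stress libraries, against 70.8, 61.5, 57.0, 55.6 and 66.1 CPM in F1 stress libraries, 0.20 ± 0.0902 (edgeR adjusted p = 0.694). Psmb7 gave 0.18 ± 0.0824 (edgeR adjusted p = 0.699). All 3 pairs of groups overlapped. Positive values were also found for 9 of 9 striatal neuron markers (median 0.47) and 10 of 10 microglial markers (median 0.18), none of them called. Summed microglial levels were 324.8 to 692.9 CPM in F2 stress and 374.5 to 484.7 CPM in F1 stress libraries, and their part was not tested.

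The core and the regulatory particle were compared as the mean log2 CPM of their genes in each library. The core minus regulatory particle value was -0.878 ± 0.0841 in F2 stress and -0.869 ± 0.0611 in F2 no-stress libraries, and -0.937 ± 0.0543 in F1 stress and -0.839 ± 0.0535 in F1 no-stress libraries (log2, SD, n = 5 each). The lineage difference of this value was -0.008 in F2 and -0.099 in F1, so that in F2 it was well within the SD of either group and in F1 it was larger than the SD of either, although the F1 libraries overlapped. With the GC and length offset the values in F1 were -0.932 ± 0.0329 in stress and -0.843 ± 0.029 in no-stress libraries, again apart by more than either SD, and those in F2 were -0.87 ± 0.0796 in stress and -0.878 ± 0.0465 in no-stress libraries. No test is given, since the genes were chosen with results known. Gene by gene, the median log2 fold change in F2 was 0.23 for the core and 0.16 for the regulatory particle, so the difference of the medians is positive where that of the means is not. Without the immunoproteasome subunits and the assembly factors the F2 difference was 0.047, and the F1 difference was -0.069 in place of -0.099. Both particles were higher on average in F2 stress libraries, at 5.22 ± 0.12 against 5.11 ± 0.122 for the core and 6.09 ± 0.0788 against 5.98 ± 0.0814 for the regulatory particle. Core genes varied more within groups, with a median SD of 0.153 (log2) against 0.116 for the regulatory particle and 0.234 over all genes.

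**Figure D5:**
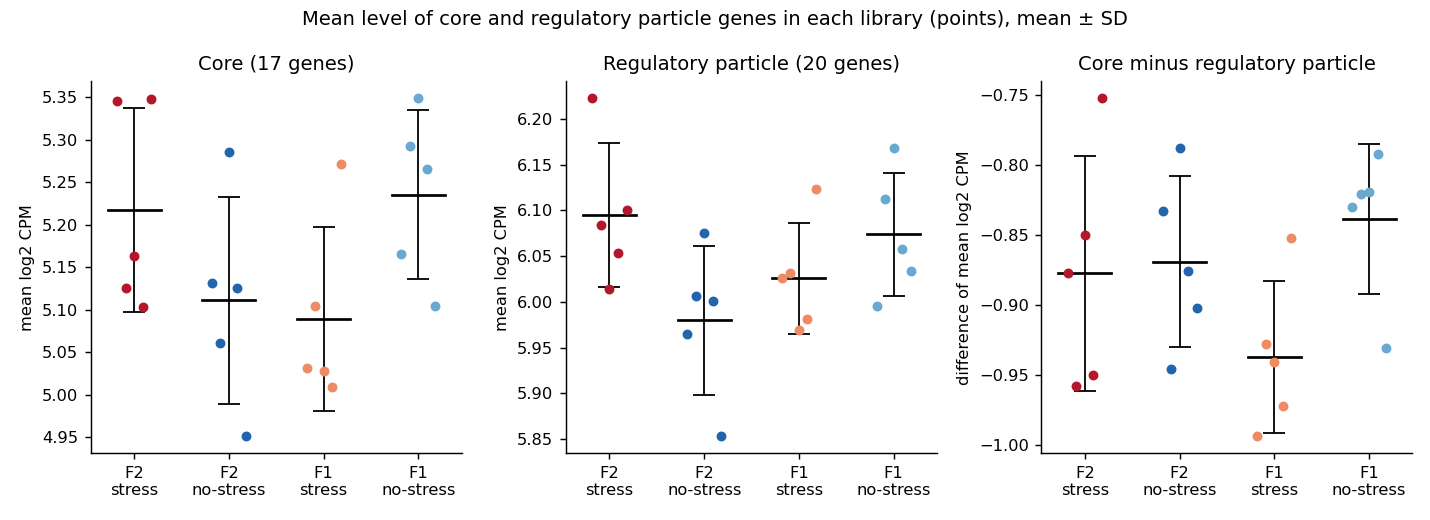
Mean log2 CPM of the 17 core genes, of the 20 regulatory particle genes and their difference in each library (points), with group means and SD (n = 5 each; axes do not start at 0). The difference centres on -0.878 in F2 stress and -0.869 in F2 no-stress libraries.

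Genes that work beside the proteasome were counted from a list of 32, of which 31 are in the table and were tested. In F2, 4 rose and 1 fell in stress mice, with 21 of 31 values positive and a median of 0.11. Over all genes tested, 2.64% rose and 5.28% fell, 50.2% of values were positive and the median was 0.00. Those that rose were Txnl1, a thioredoxin-like protein bound to the regulatory particle (0.37 ± 0.0817, edgeR adjusted p = 0.0131), Ngly1, which removes sugars from Nfe2l1 (0.41 ± 0.101, 0.0202), and the proteasome-bound deubiquitinases Uchl5 (0.41 ± 0.115, 0.0326) and Usp14 (0.31 ± 0.0935, 0.0433). Midn, which brings nuclear proteins to the proteasome without ubiquitin, fell (-0.48 ± 0.127, edgeR adjusted p = 0.0263). None of the 31 passed with the GC and length offset, where 5 had an unadjusted p below 0.05, beside 2506 of all 16727 genes. None passed in the other 4 comparisons either. An unadjusted p below 0.05 was then found for 2 of the 31 in F1, beside 1030 of all genes, for 10 in F2 minus F1, beside 3551, for 10 in F2 no-stress against F1 no-stress mice, beside 3386, and for 2 in F2 stress against F1 stress mice, beside 1169.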

How the data were processed

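Poly-A RNA of 20 amygdala samples was sequenced with a stranded kit, per the labels' protocols. The authors deposited whole-number counts per gene, aligned with STAR 2.5.3a to GRCm38 per the submitters' processing notes; no source used here gives the counter, its strand setting or the step that left library totals within 0.439% of each other. The proteasome genes and all lists were chosen with earlier results of these data known. Groups came from the labels.

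Counts were tested with edgeR 4.0.16 (R 4.3.3; TMM factors 0.956 to 1.042, filterByExpr, robust quasi-likelihood, all 20 libraries in 1 fit, 1 mean per group). P-values were adjusted over all 16727 genes tested by the Benjamini-Hochberg method, and a gene was called at an adjusted p below 0.05. The biological coefficient of variation was 18.1%. On simulated counts for the F2 comparison (16664 genes), 34 of 100 genes changed 1.5-fold and 84 of 100 changed 2-fold were called, with 8 unchanged genes. The simulation gave every gene the same dispersion and no trend with GC content. Its changes were larger than those of the called proteasome genes in F2, so it does not give the power for them. Precision is limited by 5 mice per group. CPM were scaled by TMM; log2 CPM used a prior count of 2. GC content, lengths and exon overlaps came from GENCODE M21 (GRCm38), with GC content taken from the longest transcript of each gene. Alternatives were DESeq2 1.42.0, limma-voom 3.58.1, 1 surrogate variable (sva 3.50.0), other scalings, filters and thresholds, only the groups compared, a GC and length offset (5 spline degrees of freedom) and each library left out in turn; principal transcript lengths were added after the data were seen. Values per library are given for the 6 called genes with the smallest p in a comparison, or the 3 with the smallest p where none was called, and for the catalytic, replacement and activator subunits; Psmd11, Psmd14, Psmd6 and Psma7 were named after their values were seen.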

Additional observations from a re-analysis of the deposited data

Results flagged for a closer look

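Of 76 sets of 5 libraries examined for a library that stands apart, 4 had one by Dixon's criterion (critical value 0.71), and chance gives about 1 in 20. Psma3 stood at 90.9 CPM in F2 stress library 11, with the other 4 F2 stress libraries at 79.1 to 80.8 CPM. Psmb7 stood at 104.4 CPM in the same library, with the others at 79.8 to 83.0 CPM, and at 78.6 CPM in F2 no-stress library 18, with the others at 62.9 to 67.3 CPM. The core minus regulatory particle value was -0.93 in F1 no-stress library 10, with the others at -0.83 to -0.79 (log2).

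The stress lineage effect differed between F2 and F1 by the interaction test for 3 genes: Psma2 by 0.53, Psma6 by 0.47 and Psmb7 by 0.44 on the log2 scale (edgeR adjusted p = 0.034, 0.0439 and 0.0472). Across all genes tested 2.52% passed this test, and 0.837% passed with a higher value. None of the 3 genes passed with the GC and length offset. With 1 library left out, Psma2 passed in 9 of 20 fits, Psma6 in 6 and Psmb7 in 5. For each of the 3 genes all 5 F2 stress libraries were above all 5 F2 no-stress libraries, and the F1 groups overlapped. The same libraries entered the test, so this separation gives no independent support. The share of all genes that separate in this way is not given here.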

How the results depend on the processing

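No paired analysis was possible because the labels number the mice 1 to 20 with no number shared between groups. Only the deposited totals were nearly equal; the depth sequenced for each library is unknown, and low counts limit the replacement subunits Psmb8 and Psmb9. The cause of the changes below was not tested. Counts of called proteasome genes and of all called genes follow, in that order, for each alternative; the values in the report were 7 and 1324 for F2 stress against F2 no-stress.
In F2 they were 15 and 2502 at an adjusted p below 0.1, 12 and 2019 with DESeq2, 2 and 737 without the low-count filter, 0 and 13 with the GC and length offset, and 0 and 0 with only the groups compared; 1 surrogate variable gave 2205 genes. Leaving out 1 library gave 0 to 12 and 241 to 2431. No proteasome gene was called without F2 stress library 11, 2 without library 12, 3 without library 13, 12 without library 15, and 1 without F2 no-stress library 16 or 17.
For F2 minus F1 (3 and 421) they were 9 and 1359 at an adjusted p below 0.1, and 10 and 1211 with DESeq2. They were 0 and 100 without the filter, 0 and 0 with the offset, and 1 and 294 with library totals. Leaving out 1 library gave 0 to 9 and 0 to 1501; none was called without libraries 2, 3, 4, 7, 8, 10, 11, 12, 13, 16 or 17, 1 without 9, 19 or 20, 5 without 14 or 15, 6 without 18, and 9 without 6.
For F2 no-stress against F1 no-stress (1 and 335) they were 6 and 1057 at an adjusted p below 0.1, and 0 and 208 with library totals. They were 6 and 1013 with DESeq2, 0 and 61 without the filter, and 0 and 9 with the offset. With 1 surrogate variable they were 3 and 647, and with only the groups compared 0 and 0. Relative log expression factors gave 2 and 322, and a CPM of at least 1 gave 2 and 362. Leaving out 1 library gave 0 to 4 and 0 to 725, with 4 proteasome genes without library 6, 3 without 11 or 18, 2 without 14 or 15 and 0 without any of the others; Psma2 passed in 5 of 20.
For F1 (0 and 0) all genes called were 1 at an adjusted p below 0.1, 1 with library totals and 2 with DESeq2, and 0 to 1 with 1 library left out. For F2 stress against F1 stress (0 and 2) they were 4 at an adjusted p below 0.1, 0 with library totals, 6 with DESeq2, 1 with limma-voom, 4 with the offset and 0 with only the groups compared, and 0 to 10 with 1 library left out.
The median log2 fold change of the 46 genes in F2 stayed between 0.08 and 0.16 with 1 library left out. Among named genes, Psmb5 in F2 changed sign to 0.09 with the offset, and Psma7 in F2 ran from -0.01 (without F2 stress library 15) to 0.1 with 1 library left out. In F2, Psma3 and Psmd3 did not pass without library 11, 12, 13, 16 or 17, nor Psma6 without these or 20, Psmd1 without 11, 12, 16 or 17, Psmb7 without 11, 16 or 17, and Psma2 without 11.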
